A study of Mus musculus with 9 samples.

Results

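Collagen chains are the protein subunits that wind together into the triple-helical collagens of the extracellular matrix, and their genes were followed here in the urogenital sinus of fetal and newborn mice. The members were the genes of the array whose symbol has the form of a collagen chain (Col, a type number, the letter a and a chain number), 42 of 18193 named genes. Of these, 9 code for fibrillar chains (types 1, 2, 3, 5 and 11), 8 for chains of basement membranes (types 4, 15 and 18) and 25 for other chains. Each gene was read from 1 probe set, the one with the highest mean log2 signal over the arrays, and levels of different probe sets were not compared. The rule for membership uses gene symbols alone and no measured value.

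Fibrillar collagens assemble into the cross-banded fibres that give connective tissue its tensile strength, and in a developing organ they come mainly from mesenchymal cells. Type IV collagen forms the sheet-like network of basement membranes under epithelium and around vessels and muscle, and its chains join in fixed trios. The remaining types sit on the surface of fibrils, form beaded filaments, anchor epithelium to the underlying matrix or span the cell membrane. The urogenital sinus, from which the prostate and part of the lower urinary tract arise, is an epithelial tube wrapped in such mesenchyme, and branching into that mesenchyme requires its basement membrane to be remodelled.

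RNA came from C57BL/6 fetuses and newborns whose mothers had been dosed from embryonic day 13 to 16 with vehicle, diethylstilbestrol (DES, a synthetic estrogen, 0.2 µg/kg/day) or bisphenol A (BPA, 20 µg/kg/day), a weakly estrogenic building block of plastics. The stated carrier was corn oil stripped of tocopherol. Each agent was represented by 1 array at embryonic day 17 (E17), 1 at embryonic day 18 (E18) and 1 at birth (P0), 9 arrays in all, so the 3 ages were the only repeats of an agent and the 3 agents the only repeats of an age. The labels describe dissection of the sinus away from bladder, urethra and the adjoining ducts and glands in both sexes, and do not say how many animals, of which sex, made up an array. All p-values therefore rest on the variation among these arrays alone, some of which may be technical.

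Values are given as normalised signals on a linear scale, and differences as log2 units with their standard error (SE) and 95% interval from a limma model with agent and age. Adjusted p-values are Benjamini-Hochberg values over 13399 tested genes, with a threshold of 0.05. Of the 42 chains, 38 reached the level required for testing: 8 of 9 fibrillar, 8 of 8 basement membrane and 22 of 25 others. The 4 below it were Col11a2 (signals from 10.6 to 57.2), Col6a5 (8.36 to 53.5), Col19a1 (29.6 to 44) and Col10a1, the chain of hypertrophic cartilage (1.23 to 3.87).

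Markers of mesenchyme were above the testing level, as were those of several other tissues, and cartilage and bone markers were so only in part. All 9 mesenchymal markers were above the testing level, with summed signals of 32299 to 37280 on the vehicle arrays, 32590 to 36573 on the DES arrays and 31394 to 33009 on the BPA arrays. So were all markers on the array for smooth muscle (9), skeletal muscle (13), epidermis (9), urothelium (8), endothelium (8) and leukocytes (8). Passing that level therefore does not set mesenchyme apart. Of 12 cartilage markers on the array 5 were below the testing level (Matn1, Matn3, Ucma, Snorc and Chad), as were 4 of 6 bone markers (Ibsp, Dmp1, Phex and Mepe). Several arrays stood apart in markers of neighbouring tissue. The epidermal sum was 9083 on the BPA E18 array and 20664 on the BPA P0 array against 2146 to 3944 on the other arrays, and the gonad sum was 3630 on the BPA P0 array against 513 to 606 elsewhere. The epidermal rise lay mainly in Krt1, Krt10, Lor, Flg and Krtdap. On the BPA P0 array Krt5 (718) and Ivl (410) lay inside their ranges over the arrays (575 to 1106 and 153 to 454). Trp63 (303) was there at the bottom of its range and Krt14 (384) at the top. Smooth muscle markers summed to 21717 and 23257 on the vehicle E18 and P0 arrays, against 35807 on the vehicle E17 array, 28023 to 31521 on the DES arrays and 35201 to 38488 on the BPA arrays. The skeletal muscle sum was 4092 on the BPA E17 array, against 7777 and 8078 on the other E17 arrays. Before normalisation, the trimmed mean intensity of the BPA P0 array was 157, against 235 to 277 for the others.

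Promoter stretches of 3 genes are shown here because they belong to the chains on which the account turns: Col1a2, one of the chains with the smallest spread, Col6a1, which read higher at birth with each agent, and Col24a1, which had the largest difference between BPA and vehicle. Each is the 250 bases before the RefSeq start of the gene (GRCm38.p6), read 5′ to 3′ on the gene's strand. Capitals mark matches, on either strand, to any of 5 motifs searched, namely the TATA box (TATAAA), the CCAAT box, the GC box bound by Sp1 (GGGCGG), the core of nuclear receptor sites (GGTCA) and the palindromic estrogen response element.
Col1a2, chr6:4505368-4505617, plus strand: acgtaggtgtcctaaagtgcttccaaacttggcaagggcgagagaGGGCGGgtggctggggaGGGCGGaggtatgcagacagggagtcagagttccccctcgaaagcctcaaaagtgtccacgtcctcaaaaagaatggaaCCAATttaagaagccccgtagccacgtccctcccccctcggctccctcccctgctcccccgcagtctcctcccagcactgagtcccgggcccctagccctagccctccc
Col6a1, chr10:76726045-76726294, minus strand: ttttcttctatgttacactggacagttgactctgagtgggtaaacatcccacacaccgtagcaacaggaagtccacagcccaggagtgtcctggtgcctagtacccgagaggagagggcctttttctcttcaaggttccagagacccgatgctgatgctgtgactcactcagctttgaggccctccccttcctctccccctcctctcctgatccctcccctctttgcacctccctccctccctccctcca
Col24a1, chr3:145292222-145292471, plus strand: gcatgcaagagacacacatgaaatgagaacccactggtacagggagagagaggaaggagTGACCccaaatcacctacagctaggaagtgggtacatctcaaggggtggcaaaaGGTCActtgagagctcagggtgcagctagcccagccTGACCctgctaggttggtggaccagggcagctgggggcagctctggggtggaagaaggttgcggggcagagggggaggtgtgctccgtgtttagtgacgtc
The Col1a2 window held 1 CCAAT and 2 GGGCGG, the Col24a1 window held 3 GGTCA or its reverse complement TGACC, and the Col6a1 window held none of the 5. Promoter windows were found for 33 of the 42 genes, 36 windows in all. GGGCGG was present in 21 of these 36 (58.3%) against 32.7% of 32851 windows of the same length over all genes. The shares for the other motifs were 36.1% against 33.8% for CCAAT, 38.9% against 35.2% for GGTCA and 13.9% against 12.4% for TATAAA, where the windows with TATAAA can also hold other motifs. The palindromic estrogen response element was in 0 of 36 windows and in 0.0517% of all windows. These matches describe the letters of the windows and show no binding.

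The main fibrillar chains held nearly the same level on every array. Col1a1 and Col1a2 build type I collagen, the main fibre of most connective tissue. Col1a1 signals at E17, E18 and P0 were 10299, 9191 and 10036 with vehicle, 9501, 9488 and 9424 with DES, and 9633, 9803 and 10466 with BPA. Col1a2 was read at 12964, 11666 and 13147 with vehicle, 11752, 12257 and 12678 with DES, and 12308, 12452 and 12138 with BPA. For both chains each agent overlapped vehicle and the ages overlapped, though the 3 BPA arrays of Col1a1 lay above its 3 DES arrays, and the SD of log2 signal over the 9 arrays was 0.06. BPA differed from vehicle by 0.02 ± 0.05 log2 units (SE; interval -0.1 to 0.14) for Col1a1 and by -0.03 ± 0.05 (-0.15 to 0.09) for Col1a2, and P0 from E17 by 0.02 ± 0.05 and 0.04 ± 0.05. Other probe sets gave -0.19 ± 0.1 for Col1a1 and, for the bright one of Col1a2, 0.01 ± 0.06 between P0 and E17. A dim Col1a2 set, with signals of 37.9 to 88.5, gave -0.81 ± 0.27 for BPA, lower at each age. In whole tissue, fewer cells of a type and less RNA per cell cannot be told apart, for these chains and for all that follow.

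**Figure D1:**
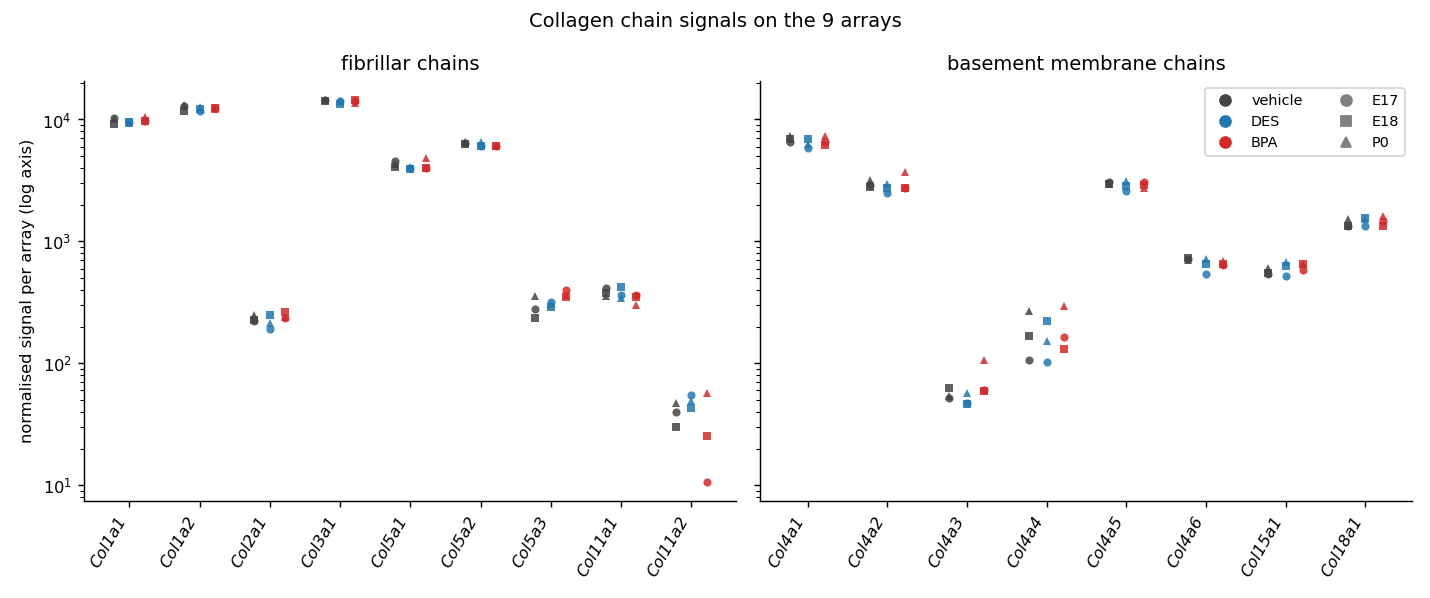
Normalised signal (log axis) of each fibrillar and basement membrane chain on the 9 arrays, 1 point per array, coloured by agent and shaped by age. Points of Col1a1, Col1a2, Col3a1 and Col5a2 nearly coincide, while Col4a4 runs from 103 to 297; heights of different genes come from different probe sets and are not comparable.

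Col3a1, the chain of type III collagen that is abundant in distensible tissue, had the smallest spread, an SD of 0.03, but its probe set lay at the top of the scale. It ranked between 2 and 5 among all probe sets on each array, with deposited intensities of 10557 to 15577 where the array maxima were 10763 to 15881. Quantile normalisation gave it 4 distinct values over the 9 arrays, from 13504 to 14410. A difference at the very top of the scale would be compressed by that step. BPA differed from vehicle by -0.02 ± 0.04 for Col3a1 and by -0.01 ± 0.07 for Col5a1. A second Col3a1 set, lower on the scale, read 5510, 4734 and 6523 with vehicle, 5061, 5640 and 5872 with DES, and 5633, 5478 and 6736 with BPA at E17, E18 and P0. Its P0 arrays lay above its E17 arrays without overlap, a difference of 0.24 ± 0.08, and BPA differed from vehicle by 0.1 ± 0.08. Col1a2 ranked between 8 and 38, and Col1a1 between 89 and 153.

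The small spread was not particular to collagen. Among 270 tested genes with a mean log2 signal of 12 or more the median SD was 0.08, and for the 9 collagen chains in that range it was 0.07. By class the median SD was 0.08 for fibrillar chains (0.03 to 0.23), 0.13 for basement membrane chains (0.09 to 0.53) and 0.16 for the others (0.07 to 0.66), against 0.19 for all tested genes.

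**Figure D2:**
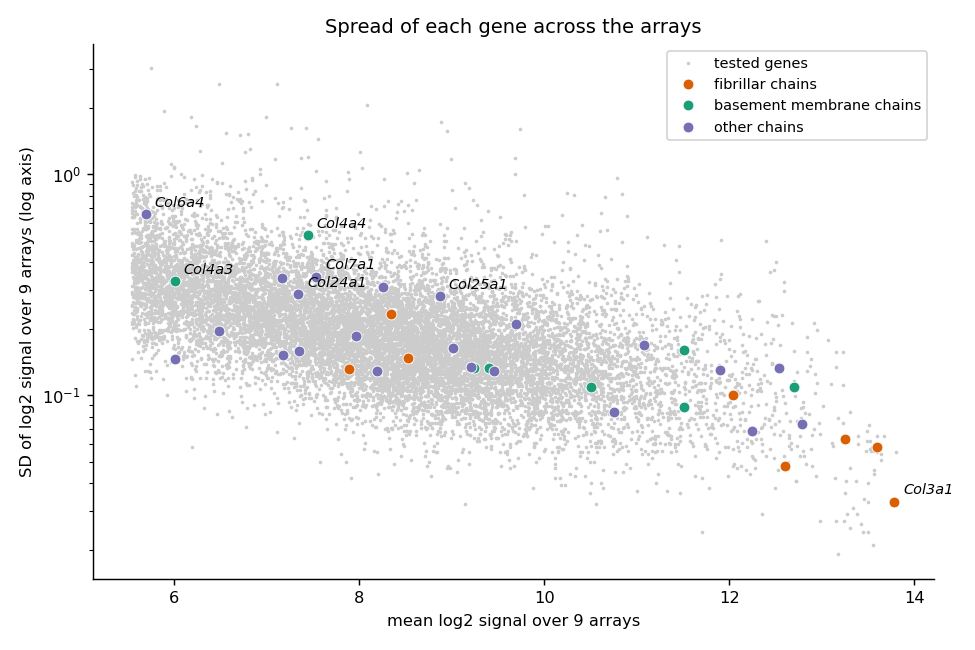
SD of log2 signal over the 9 arrays (log axis) against mean log2 signal for the 13399 tested genes (grey) and the 38 tested collagen chains (coloured by class). The spread narrows as the signal rises; Col3a1 lies at the bright end with 0.03, and Col4a4 (0.53) and Col6a4 (0.66) lie highest among the chains.

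The other fibrillar chains were as steady or nearly so. Col5a1 and Col5a2 encode chains of type V collagen, which sits inside type I fibrils and sets their width. Col5a1 ran from 3933 to 4840 and Col5a2 from 6017 to 6592. Col5a2 differed from vehicle by -0.07 ± 0.05 with BPA (interval -0.19 to 0.05), its 3 BPA arrays (6114, 6114 and 6017) lying below its 3 vehicle arrays (6368, 6283 and 6501). Col2a1, the main collagen of cartilage, ran from 193 to 263, with differences of 0.07 ± 0.12 for BPA, -0.09 ± 0.12 for DES and 0.11 ± 0.12 for P0 against E17. Col11a1, which nucleates fibrils of cartilage and other tissues, differed by -0.18 ± 0.11 with BPA (-0.42 to 0.06) and by -0.19 ± 0.11 between P0 and E17 (-0.43 to 0.06). A second, nearly as bright Col11a1 set gave -0.07 ± 0.11 with BPA and 0.01 ± 0.11 between P0 and E17.

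Col5a3, another type V chain, was the fibrillar chain with the largest difference between agents. Its signals at E17, E18 and P0 were 281, 235 and 360 with vehicle, 317, 289 and 309 with DES, and 401, 351 and 365 with BPA. BPA was the higher array at each age, but the vehicle P0 array lay above the BPA E18 array, so the groups overlapped. The difference was 0.36 ± 0.13 log2 units (interval 0.07 to 0.66; limma adjusted p = 0.488), and 0.06 with the mean of all probe sets, which brings in a very dim set, and that of DES was 0.08 ± 0.13 (-0.21 to 0.37).

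Chains that share a protein were also compared with each other across the arrays. The log2 ratio of Col1a1 to Col1a2 had an SD of 0.06 over the 9 arrays, as small as that of either chain. For Col4a1 and Col4a2 the SD of the ratio was 0.11, beside 0.11 and 0.16 for the single chains, and for Col4a5 and Col4a6 it was 0.1, beside 0.09 and 0.13. For Col6a1 and Col6a2 it was 0.08, beside 0.13 and 0.07. In the dimmer pairs the ratio varied more: 0.45 for Col4a3 and Col4a4, 0.36 for Col8a1 and Col8a2, and 0.3 for Col9a1 and Col9a3. These SDs describe the arrays and include the noise of both probe sets.

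The comparison of BPA with vehicle asked whether exposure before birth altered the collagen genes once dosing had ended. It gave 0 adjusted calls among the 38 chains by limma, against 0.0149% of all tested genes (2 genes), and the smallest adjusted p of a chain was 0.336. At an unadjusted p under 0.05 there were 4 chains, 10.5% of the 38, where 8.29% of all tested genes passed: Col5a3 higher, and Col12a1, Col23a1 and Col24a1 lower. Chains lower with BPA at all 3 ages numbered 11 (all tested genes, 14.7%), and chains higher at all 3 numbered 4 (all tested genes, 16%). The median difference was -0.02 for fibrillar chains (3 of 8 above 0), 0.06 for basement membrane chains (5 of 8) and -0.06 for other chains (6 of 22), beside 0.01 for all tested genes, 52.3% of which were above 0. On the deposited scale all tested genes had a median of -0.24, and relative to it the class medians were 0.09, 0.06 and -0.07. The fibrillar median thus turned from below to above that of all genes, as it also did with arrays scaled to a common trimmed mean (0.09 relative). The basement membrane median turned to -0.02 without the BPA E17 array and to -0.03 with BPA P0 and DES E17 both left out.

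**Figure D3:**
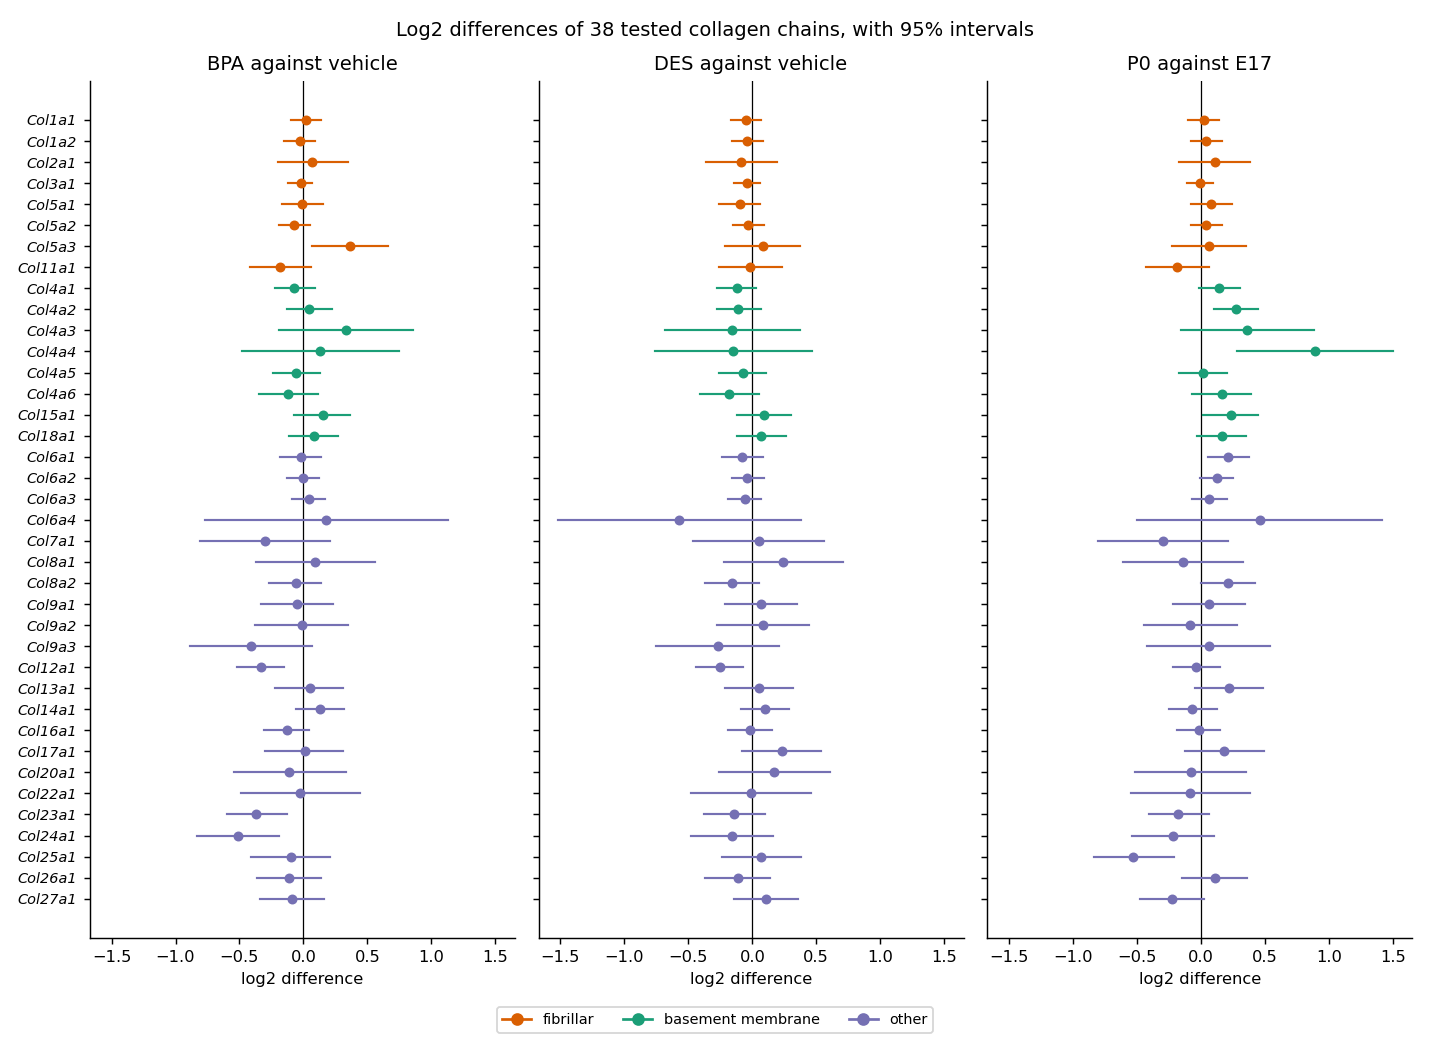
Log2 difference (point) and 95% interval (line) of the 38 tested chains, coloured by class, for BPA against vehicle, DES against vehicle and P0 against E17. Most intervals cross 0; in the age comparison all 8 basement membrane points lie at or above 0.01, with Col4a4 at 0.89.

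Col12a1, a fibril-associated collagen found in tendon, fascia and other dense mesenchyme, read lower on the arrays of both agents. Its signals at E17, E18 and P0 were 2580, 2364 and 2494 with vehicle, 2183, 2125 and 1934 with DES, and 1822, 2119 and 1974 with BPA. All 3 arrays of each agent lay below all 3 vehicle arrays. BPA differed from vehicle by -0.33 ± 0.08 log2 units (interval -0.52 to -0.15; limma adjusted p = 0.336) and DES by -0.25 ± 0.08 (-0.44 to -0.07; adjusted p = 0.775). Both differences use the same 3 vehicle arrays. A second Col12a1 probe set above the testing level gave -0.08 ± 0.09 for BPA and -0.25 ± 0.09 for DES, so the BPA difference was smaller there; with the mean of all probe sets it was -0.19. Neither difference passed the threshold.

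Col24a1, a minor fibril-forming chain outside the classical fibrillar types listed above, showed the largest BPA difference of the tested chains. Signals were 194, 200 and 159 with vehicle, 151, 205 and 142 with DES, and 140, 130 and 113 with BPA. The 3 BPA arrays were the lowest of the 9. The difference from vehicle was -0.51 ± 0.14 (interval -0.83 to -0.19; limma adjusted p = 0.382), and that from DES -0.35 ± 0.14 (adjusted p = 0.609). Of the 3 promoter windows printed above, only that of Col24a1 held GGTCA, with 3 matches. That motif was in 38.9% of the windows of the chains and 35.2% of all windows. Whether the matches bear on the difference was not tested. The single probe set of Col24a1 gives no second reading.

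Col23a1, a collagen that spans the cell membrane, had signals of 1038, 955 and 811 with vehicle, 779, 902 and 853 with DES, and 778, 762 and 630 with BPA. The BPA arrays lay below the vehicle arrays without overlap, and 2 DES arrays lay among the vehicle arrays. The BPA difference was -0.37 ± 0.11 (interval -0.6 to -0.13; limma adjusted p = 0.394). The gene's other probe sets gave -0.12 ± 0.14 and -0.34 ± 0.15. Leaving out the BPA E18 and BPA P0 arrays, those with the high epidermal sums, was a choice made after these sums were known. It left BPA with 1 array, BPA E17, the one with the low skeletal muscle sum. The BPA differences were then -0.51 for Col12a1, -0.36 for Col24a1, -0.28 for Col23a1 and 0.46 for Col5a3. Each rests on that 1 array, so they do not show whether the differences hold. The summed mesenchymal signal at E17, E18 and P0 was 32379, 31394 and 33009 with BPA, against 32299, 33061 and 37280 with vehicle. It was thus lower with BPA at E18 and P0. The smooth muscle sum, given above, also differed between BPA and vehicle at E18 and P0. The part of these sums in the differences of the chains was not tested.

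**Figure D4:**
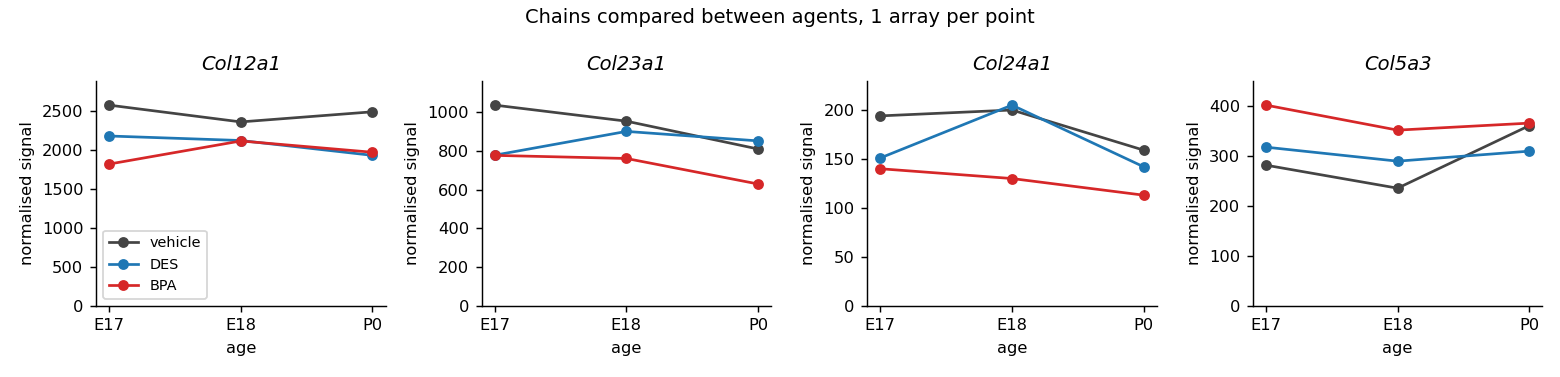
Normalised signal (axis from 0) of Col12a1, Col23a1, Col24a1 and Col5a3 by age, 1 array per point, 1 line per agent. The BPA line is below the vehicle line at each age for the first 3 genes and above it for Col5a3, where the P0 values are 365 and 360.

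The largest remaining differences with BPA were in dim chains and were poorly determined. Col9a3, a chain of the fibril-associated type IX collagen of cartilage, had BPA signals of 139, 140 and 92.5 against 151, 166 and 172 with vehicle. The groups did not overlap, and the difference was -0.41 ± 0.22 (interval -0.89 to 0.07). A dimmer Col9a3 set above the testing level read 73.7, 165 and 110 with vehicle, 22.3, 41.3 and 23.4 with DES and 75.3, 23.9 and 21 with BPA. Its differences were -1.79 ± 0.46 for DES, without overlap, and -1.54 ± 0.46 for BPA, where the E17 array lay among the vehicle arrays. Most of its DES and BPA arrays lay near or below the testing level (signal 41.2), over which the vehicle arrays carried this set. Col7a1, the anchoring fibril collagen of stratified epithelium, differed by -0.3 ± 0.23 (-0.81 to 0.21), and Col17a1, a hemidesmosomal collagen of basal keratinocytes, by 0.01 ± 0.14 (-0.3 to 0.31). Neither of these epithelial chains followed the epidermal marker sums: on the BPA P0 array, where the sum was highest, Col7a1 read 159 and Col17a1 142, inside or below their vehicle ranges of 168 to 214 and 120 to 150. Nor did every marker of that list: Krt5 read 718 and Trp63 303 there, though Krt14 read 384, its highest value. Col14a1, a fibril-associated chain, differed by 0.13 ± 0.08, and Col16a1, which associates with fibrils and basement membranes, by -0.13 ± 0.08. Col6a4, a dim chain, gave 0.18 ± 0.43, an interval of -0.77 to 1.13.

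On the chosen probe sets, no basement membrane chain was set apart by BPA beyond its interval. Col4a1 and Col4a2 make the type IV network present in nearly every basement membrane, and their BPA differences were -0.07 ± 0.07 (interval -0.22 to 0.09) and 0.04 ± 0.08 (-0.13 to 0.22). Col4a5 and Col4a6, which join in the basement membranes of smooth muscle and some epithelia, gave -0.06 ± 0.08 (-0.24 to 0.13) and -0.12 ± 0.1 (-0.35 to 0.11). Col15a1 and Col18a1, which carry sugar chains and lie at the border of the basement membrane and the matrix, gave 0.15 ± 0.1 and 0.08 ± 0.09. Col4a4 gave 0.13 ± 0.28. Col4a3 gave 0.33 ± 0.23, and its difference was 0.11 without the BPA P0 array. Other probe sets gave 0.38 ± 0.23 for Col4a3 and 0.51 ± 0.26 and 0.39 ± 0.24 for Col4a4, each higher with BPA at all 3 ages. A second Col4a5 set gave -0.19 ± 0.09, its BPA arrays (937, 995 and 954) lying below its vehicle arrays (1072, 1137 and 1084). Second sets gave 0.03 ± 0.09 for Col4a1, -0.2 ± 0.13 for Col4a6 and 0.07 ± 0.07 for Col18a1.

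For DES against vehicle, 0 chains passed by limma, as did 0% of all tested genes, and the smallest adjusted p of a chain was 0.775. At an unadjusted p under 0.05 only Col12a1 passed, 1 of 38 chains beside 6.37% of all tested genes. Chains lower at all 3 ages numbered 6 (all tested genes, 10.7%): Col3a1, Col5a1, Col4a2, Col6a4, Col8a2 and Col12a1. Those higher at all 3 were Col17a1 and Col20a1, 2 chains (all tested genes, 17.4%). The class medians were -0.04 for fibrillar (1 of 8 above 0), -0.12 for basement membrane (2 of 8) and -0.01 for other chains (10 of 22), beside 0.02 for all tested genes.

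The largest DES differences outside Col12a1 were those of Col6a4 (-0.57 ± 0.43), Col9a3 (-0.27 ± 0.22) and Col8a1, a short-chain collagen of vessels and endothelium (0.24 ± 0.21), with intervals that held 0. Col17a1 signals with DES were 151, 163 and 154, above those with vehicle (120, 127 and 150), a difference of 0.23 ± 0.14 (-0.08 to 0.54). Col20a1 gave 0.17 ± 0.2, Col8a2 -0.16 ± 0.09 and Col24a1 -0.16 ± 0.14. The fibrillar chains stayed within narrow bounds: the DES differences were -0.05 ± 0.05 for Col1a1, -0.04 ± 0.05 for Col1a2, -0.04 ± 0.04 for Col3a1, -0.1 ± 0.07 for Col5a1, -0.03 ± 0.05 for Col5a2 and -0.02 ± 0.11 for Col11a1. The basement membrane chains gave -0.12 ± 0.07 for Col4a1, -0.11 ± 0.08 for Col4a2, -0.16 ± 0.23 for Col4a3, -0.15 ± 0.28 for Col4a4, -0.07 ± 0.08 for Col4a5, -0.18 ± 0.1 for Col4a6, 0.09 ± 0.1 for Col15a1 and 0.07 ± 0.09 for Col18a1. A second Col4a5 set gave -0.3 ± 0.09, with 839, 839 and 996 on the DES arrays, all below vehicle (1072, 1137 and 1084). Other sets gave -0.23 ± 0.09 for Col4a1, -0.3 ± 0.23 for Col4a3 and 0 ± 0.26 and 0.32 ± 0.24 for Col4a4. Those of Col4a6 and Col18a1 gave -0.22 ± 0.13 and -0.07 ± 0.07. On the DES E17 array Col4a6 read 543 against 644 to 733 on the other E17 and E18 arrays.

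BPA and DES were also set against each other: 0 chains passed by limma (all tested genes, 0%), and 1 chain, Col24a1, passed at an unadjusted p under 0.05 (all tested genes, 7.81%). All 8 basement membrane chains had a BPA value above the DES value in the model, with a median of 0.06 log2 units, where 45.7% of all tested genes did. Whether an agent's difference grew or shrank with age was tested as a slope per age step. By limma 0 chains passed for BPA (all tested genes, 0.0522%) and 0 for DES (0%), and 0 chains passed at an unadjusted p under 0.05 for either, beside 8.79% and 7.46% of all tested genes.

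In the comparison of ages the chosen probe sets of the basement membrane chains had values at birth above those at E17, by small amounts. Those of the fibrillar chains differed less, with Col3a1 read at the top of the scale. For P0 against E17, 0 chains passed the adjusted threshold by limma, where 0.619% of all tested genes did (83 genes), and the smallest adjusted p of a chain was 0.105. At an unadjusted p under 0.05 there were 6 chains, 15.8% of 38, beside 19.2% of all tested genes: Col4a2, Col4a4, Col15a1, Col6a1 and Col8a2 higher and Col25a1 lower. Chains higher at P0 with all 3 agents numbered 13 (all tested genes, 19.6%), of which 6 were among the 8 basement membrane chains, and 4 were lower with all 3 (all tested genes, 18.5%). The median was 0.19 for basement membrane chains (8 of 8 above 0), 0.04 for fibrillar (6 of 8) and -0.03 for other chains (10 of 22), beside 0 for all tested genes, 50.3% of which were above 0. With values as deposited the basement membrane median was -0.08 with 3 of 8 above 0, but the median of all genes was then -0.29, and relative to it the basement membrane median was 0.21 with 8 of 8 above it. Scaling to a common trimmed mean gave 0.21. With the mean of all probe sets of a gene the fibrillar median was 0.08 (5 of 8 above 0) and the basement membrane median 0.17 (8 of 8). The count of all genes past the threshold depended on single arrays: leaving out each in turn moved the 83 genes to between 6 and 1156, the highest without the DES P0 array.

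Col4a2 signals at E17, E18 and P0 were 2878, 2814 and 3163 with vehicle, 2494, 2758 and 2979 with DES, and 2766, 2740 and 3696 with BPA. The 3 P0 arrays lay above all 3 E17 arrays. The difference was 0.27 ± 0.08 log2 units (interval 0.1 to 0.44; limma adjusted p = 0.125), and 0.19 without the BPA P0 array, which was the highest of the 9. Its partner Col4a1 went from 6592, 5881 and 6546 at E17 to 7381, 6350 and 7286 at P0 in the order vehicle, DES, BPA, a difference of 0.14 ± 0.07 (-0.02 to 0.3).

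Col4a3 and Col4a4 form, with Col4a5, the network best known from the glomerulus of the kidney and from some epithelia. Col4a4 was read at 107, 167 and 271 with vehicle, 103, 224 and 153 with DES, and 165, 131 and 297 with BPA. P0 was above E17 with each agent, but the DES P0 array (153) lay below the BPA E17 array (165), and the E18 arrays were spread from 131 to 224. The difference of 0.89 ± 0.28 (interval 0.28 to 1.5; limma adjusted p = 0.143) was the largest of the 38 chains, and the gene's other probe sets gave 1.19 ± 0.26 and 0.28 ± 0.24. It became 0.73 without the BPA P0 array and 1.22 (adjusted p = 0.0314) without the DES P0 array. Over all alternatives the adjusted p ran from 0.0314 to 0.539.

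Col4a3 had signals of 52.1, 63.1 and 54.5 with vehicle, 47.3, 46.2 and 57.3 with DES, and 60.4, 59.1 and 106 with BPA, so only the BPA P0 array stood clear of the rest. The difference between P0 and E17 was 0.36 ± 0.23 (-0.16 to 0.88), and 0.13 without that array. That array also carried the high epidermal and gonad sums, and their part in this value was not tested.

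**Figure D5:**
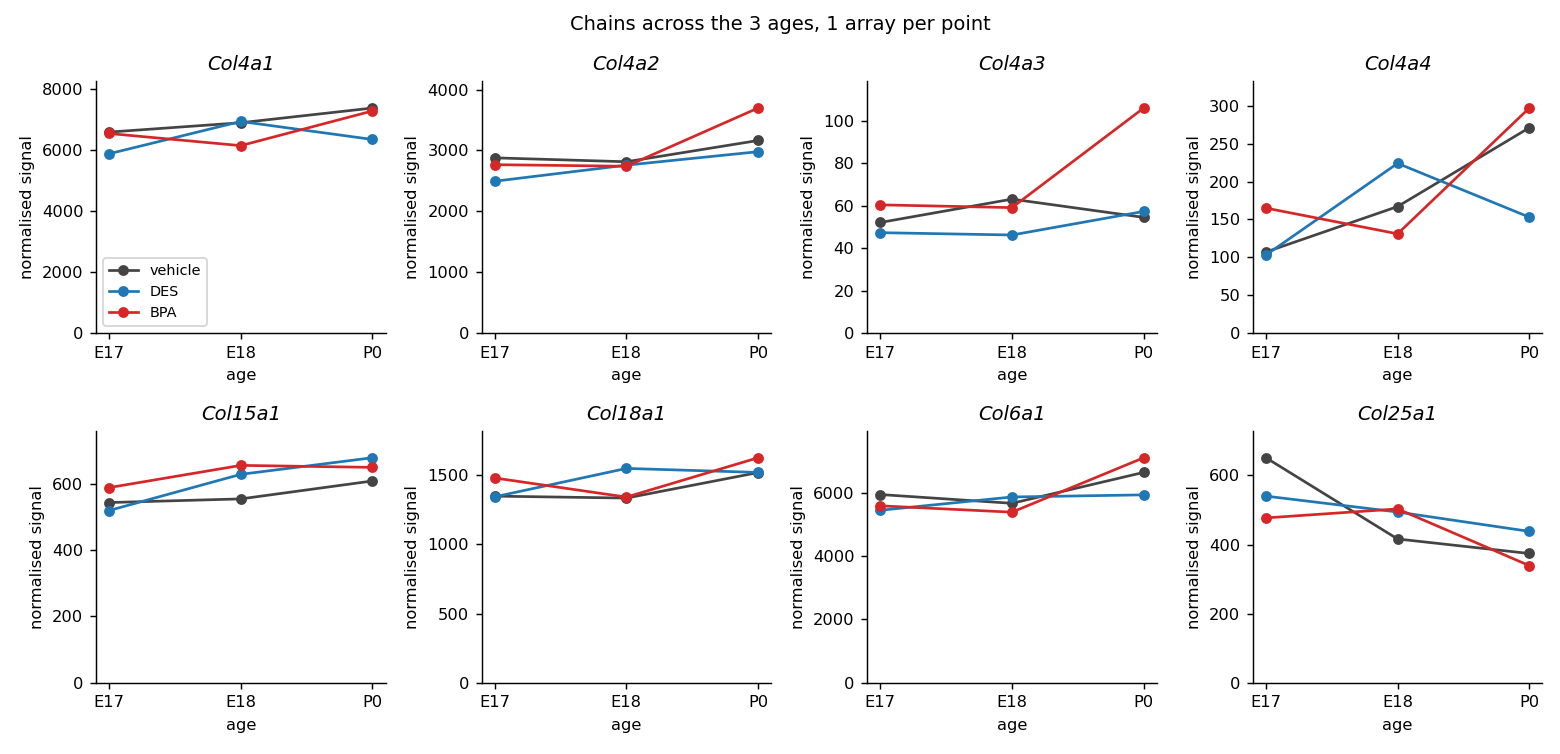
Normalised signal (axes from 0) of 8 chains at E17, E18 and P0, 1 array per point, 1 line per agent. Each chain except Col25a1 is higher at P0 than at E17 on every line; Col4a3 reaches 106 only with BPA at P0, and Col25a1 falls short of its E17 level at P0 on every line.

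Col15a1 signals were 543, 554 and 608 with vehicle, 519, 628 and 678 with DES, and 588, 655 and 649 with BPA. Every P0 array was above every E17 array, with a difference of 0.23 ± 0.1 (interval 0.01 to 0.44; limma adjusted p = 0.235). For Col18a1, the source of the fragment endostatin, the E17 arrays (1347, 1342 and 1478) also lay below the P0 arrays (1517, 1518 and 1624), a difference of 0.16 ± 0.09 (-0.03 to 0.35). Col4a6 gave 0.16 ± 0.1 and Col4a5 0.01 ± 0.08 (-0.17 to 0.2), the smallest of the class. A second, nearly as bright Col4a6 set gave -0.04 ± 0.13 and was higher at P0 with only 1 agent. Second sets of the others gave 0.09 ± 0.09 for Col4a1, 0.33 ± 0.23 for Col4a3, 0.1 ± 0.09 for Col4a5 and 0.08 ± 0.07 for Col18a1. The summed signal of 8 endothelial markers, cells rich in type IV, XV and XVIII collagen, was 3423 to 3618 at E17, 3643 to 3863 at E18 and 3975 to 4426 at P0, without overlap between these ages. Between E17 and P0 the sums of skeletal muscle (4092 to 8078, then 11976 to 16150), leukocyte (1780 to 1950, then 2067 to 2446) and mesenchymal markers (32299 to 32590, then 33009 to 37280) were also higher at P0 without overlap. Single members of the lists went the other way. The mesenchymal Twist1 was lower at P0 with each agent (335, 365 and 282, then 290, 277 and 213 with vehicle, DES and BPA). Pdgfra, the endothelial Kdr and the muscle gene Ckm were lower with vehicle and BPA. The part of these sums in the differences was not tested.

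Type VI collagen, which forms beaded filaments around cells, had a similar course. Col6a1 signals were 5939, 5662 and 6638 with vehicle, 5443, 5862 and 5929 with DES, and 5583, 5383 and 7100 with BPA. P0 exceeded E17 with each agent, though the DES P0 array lay just below the vehicle E17 array. The difference was 0.21 ± 0.07 (interval 0.05 to 0.37; limma adjusted p = 0.166), and 0.13 without the BPA P0 array. Col6a2 gave 0.12 ± 0.06 and Col6a3 0.06 ± 0.06, both higher at P0 with each agent.

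Among the remaining chains, Col25a1 had the lowest adjusted p in the age comparison. It encodes a membrane-spanning collagen of neurons and developing muscle. Its signals were 651, 416 and 374 with vehicle, 540, 494 and 438 with DES, and 477, 503 and 339 with BPA, and every P0 array was below every E17 array. The difference was -0.53 ± 0.14 (interval -0.84 to -0.21; limma adjusted p = 0.105, 0.0197 to 0.751 over the alternatives). A second, dimmer probe set of the gene gave 0.3 ± 0.27, the opposite sign, and the mean of both gave -0.11.

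Col8a2, which pairs with Col8a1, was higher at P0 (854, 682 and 734) than at E17 (669, 614 and 668) in the order vehicle, DES, BPA, a difference of 0.21 ± 0.09 (limma adjusted p = 0.254). Col8a1 differed by -0.14 ± 0.21. Col6a4 gave 0.46 ± 0.43, Col7a1 -0.3 ± 0.23 and Col24a1 -0.22 ± 0.14. Of the fibrillar chains not yet given for age, Col3a1 differed by -0.01 ± 0.04, Col5a1 by 0.08 ± 0.07, Col5a2 by 0.04 ± 0.05 and Col5a3 by 0.06 ± 0.13. Further probe sets gave 0.24 ± 0.08 for Col3a1, 0.16 ± 0.09 and 0.18 ± 0.11 for Col5a1 and 0.09 ± 0.07 for Col5a2, each higher at P0 with all 3 agents. A second Col11a1 set gave 0.01 ± 0.11, and the second Col1a1 set -0.19 ± 0.1, lower with all 3 agents. Col27a1, a minor fibril-forming chain of cartilage, gave -0.23 ± 0.11 (-0.48 to 0.02), with 0.16 ± 0.18 from a second set, and Col13a1, a membrane-spanning chain, 0.22 ± 0.12 (-0.05 to 0.48). Of 22 chains with several probe sets above the testing level, the sets of 12 had the same sign for P0 against E17 and those of 10 did not; for BPA the counts were 16 and 6, and for DES 14 and 8.

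The steps from E17 to E18 and from E18 to P0 were compared as well. By limma 0 chains passed in either (all tested genes, 0% in both). At an unadjusted p under 0.05 there were 0 chains for E18 against E17 (all tested genes, 3.19%) and 4 for P0 against E18 (all tested genes, 14.3%): Col4a2, Col6a1 and Col13a1 higher, Col24a1 lower. Col13a1 was read at 216, 204 and 223 at E18 and at 274, 282 and 294 at P0 (vehicle, DES, BPA), without overlap, a difference of 0.4 ± 0.12 (adjusted p = 0.235). On the chosen probe sets all 8 basement membrane chains were above 0 in this step, with a median of 0.11, beside 48.2% of all tested genes. The second Col4a6 set gave -0.12 ± 0.13.

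Genes that make, bind, organise or degrade collagen were followed as lists, with all tested members counted. In the comparisons of BPA and of DES with vehicle, 0 of 103 tested genes of the 6 lists passed by limma, and 12 (11.7%) and 4 (3.88%) had an unadjusted p under 0.05, beside 8.29% and 6.37% of all tested genes. Both of these counts include Loxl4, which was tested only because it was high with BPA, as described below. For P0 against E17, 33 of 103 (32%) had an unadjusted p under 0.05, beside 19.2% of all tested genes, and 1 gene passed the adjusted threshold: Fmod, a small proteoglycan that regulates the thickness of collagen fibrils. Its signals were 339, 386 and 497 with vehicle, 304, 428 and 475 with DES, and 374, 427 and 571 with BPA. The P0 arrays lay above the E17 arrays without overlap. Fmod rose by 0.59 ± 0.11 log2 units (interval 0.36 to 0.83; limma adjusted p = 0.0428). Over 20 alternatives the difference ran from 0.29 to 0.63 and the adjusted p from 0.0196 to 0.364, and it was past the threshold in 5. The call was lost with values as deposited (0.29, adjusted p = 0.364), without the filter on low values (adjusted p = 0.0653), without the intensity trend (0.123), with the mean of all probe sets (0.48, adjusted p = 0.104), with only the arrays compared (0.124), with the BPA P0 array left out together with DES E17 (0.292) or BPA E18 (0.268), and without any 1 array other than the DES P0 array (adjusted p = 0.0632 to 0.181).

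Fibril-associated matrix proteins, the list that holds Fmod, had 18 of 19 tested members above 0 at P0 against E17, where 50.3% of all tested genes were, with a median of 0.22 beside 0 for all, and 8 of the 19 passed at an unadjusted p under 0.05. Dpt, which binds the surface of fibrils, gave 0.79 ± 0.18 (limma adjusted p = 0.0811), with 837, 896 and 1042 at E17 and 2405, 1140 and 1472 at P0. Collagen-degrading enzymes and their inhibitors had 10 of 13 above 0, with a median of 0.22 and an unadjusted p under 0.05 for 5 higher and 1 lower. Timp3, an inhibitor of matrix proteases bound to the matrix, gave 0.43 ± 0.09 (adjusted p = 0.0738), and Ctsk, a collagen-cleaving cathepsin, 0.68 ± 0.17 (adjusted p = 0.0877). The laminins and other basement membrane partners had 13 of 19 above 0, with a median of 0.04, and 4 higher at an unadjusted p under 0.05, Lamb3 (0.46 ± 0.13) and Lama2 (0.38 ± 0.12) having the largest differences.

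Enzymes of collagen biosynthesis and crosslinking had 10 of 28 above 0 in the age comparison, with a median of -0.03, and an unadjusted p under 0.05 for 3 higher and 5 lower. P4ha1, a catalytic subunit of the prolyl hydroxylase that stabilises the triple helix, had signals of 918, 855 and 266 with vehicle, 774, 812 and 707 with DES, and 1127, 741 and 337 with BPA. Its low values were the vehicle and BPA P0 arrays, and the DES P0 array stayed near the prenatal level. The difference between P0 and E17 was -1.21 ± 0.27 (limma adjusted p = 0.0787). Colgalt2, a collagen galactosyltransferase, gave -0.81 ± 0.34, but was higher at P0 with DES (93.8 at E17, then 113). Collagen receptors had 2 of 8 above 0, with a median of -0.14, Itga1 at -0.39 ± 0.16 and Ddr1 at -0.38 ± 0.14. Ddr1 was higher at P0 with DES (1977 at E17, then 2090). The regulators of collagen genes had 10 of 16 above 0, with a median of 0.09. Ccn2, a matricellular growth factor, gave 0.67 ± 0.27, and Scx, a tendon transcription factor, 0.59 ± 0.37. Ccn2 was lower at P0 with DES (830, then 729), and its highest array was vehicle P0 (1862). Scx was lower at P0 with vehicle (88, then 68.8), and its lowest array was DES E17 (33).

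With BPA, the largest difference in the biosynthesis list was that of Loxl4, a lysyl oxidase that crosslinks collagen and elastin. It was dim, with 24.9, 29.2 and 35.6 with vehicle, 48, 40.8 and 50 with DES and 66.5, 60.9 and 64.8 with BPA. The 3 agents did not overlap. All vehicle arrays lay below the testing level (signal 41.2) and the DES arrays near it. The BPA arrays carried the gene over that level, so it was tested only because it was high with BPA. BPA differed from vehicle by 0.99 ± 0.23 (interval 0.47 to 1.51; limma adjusted p = 0.334) and DES by 0.56 ± 0.23 (adjusted p = 0.775), with the vehicle arrays shared. Npnt, an integrin ligand of the basement membrane, gave -0.48 ± 0.08 (adjusted p = 0.254), with 1160, 1325 and 1322 with BPA against 1618, 1878 and 1808 with vehicle. Fap, a fibroblast protease that trims collagen fragments, gave -0.46 ± 0.13, Thbs2, a matrix glycoprotein needed for normal fibrils, 0.38 ± 0.1, the collagen receptor subunit Itga1 0.53 ± 0.16, and Tgfb1, an inducer of collagen genes, 0.42 ± 0.12. Smaller or less certain BPA differences were those of P4ha2 (0.43 ± 0.17), Mmp19 (-0.43 ± 0.27), Prelp (0.41 ± 0.24), Sp1 (-0.34 ± 0.19), Lama3 (0.28 ± 0.13) and Itgb1 (0.21 ± 0.07). Mmp19 lay near the testing level, with 63.4, 55.1 and 54.7 with vehicle, 38.9, 41.1 and 45.5 with DES, and 34.1, 31.1 and 65.5 with BPA. Mainly the vehicle arrays and the BPA P0 array carried Mmp19 over that level. With DES the 2 genes of largest difference in each list were, beside Loxl4, Tnxb (-0.44 ± 0.14), Mmp19 (-0.42 ± 0.27), Dpt (-0.41 ± 0.18), P4ha1 (0.36 ± 0.27), Lama1 (-0.31 ± 0.24), Ccn2 (-0.29 ± 0.27), Itga1 (0.28 ± 0.16), Gp6 (-0.28 ± 0.24), Osr1 (-0.28 ± 0.16), Lamb2 (-0.23 ± 0.11) and Ctsk (-0.23 ± 0.17). None of these passed the adjusted threshold.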

How the data were processed

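The deposited table holds linear probe set intensities of 9 arrays from vehicle, DES and BPA exposed animals; per the submitters' processing notes MAS5 was used, with a scaling target not given in the sources used here. The deposited intensity levels differed between arrays, so quantile normalisation was applied, then log2(signal + 5.46), the 10th percentile, which understates differences of dim genes and compresses those at the top of the scale. Of 45101 probe sets, 64 controls were left out of naming, 34945 had 1 symbol in the platform annotation, 932 several and 9211 none. Genes with a mean log2 value of at least 5.54 (signal 41.2, the 40th percentile) were tested with limma 3.58.1 in R 4.3.3: age and agent as factors, 4 residual degrees of freedom, intensity trend, Benjamini-Hochberg adjustment. The residual mixes array noise with responses that differ between ages. The script was tested on simulated data. The number of arrays limits the precision.

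The members and gene lists were chosen with earlier results of these data known. Described were all tested fibrillar and basement membrane chains, other chains that passed or had the 8 largest differences for BPA, DES or P0 against E17, and list genes that passed or had the 2 largest. Alternatives covered scaling, pseudocount, filter, probe set choice, trend and left-out arrays.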

Additional observations from a re-analysis of the deposited data

How the results depend on the processing

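The count of chains past the adjusted threshold stayed at 0 in every alternative run for 7 of the 8 comparisons. For P0 against E17 it was 1 with values as deposited (Col25a1) and, leaving out each array in turn, 0 to 2, the 2 (Col25a1 and Col4a4) without the DES P0 array. With values as deposited the medians of fibrillar, basement membrane and other chains were -0.151, -0.173 and -0.304 for BPA against vehicle and -0.186, -0.079 and -0.283 for P0 against E17, and for DES against vehicle those of basement membrane and other chains were 0.001 and 0.085; the medians of all genes were then -0.24, -0.29 and 0.11. Scaled to one trimmed mean, the fibrillar median was 0.096 for BPA and 0.101 for P0 against E17, and with the mean of all probe sets the latter was 0.079. Leaving out each array in turn, the medians for P0 against E17 ran from 0.02 to 0.061 for fibrillar and from -0.051 to 0.044 for other chains, and the basement membrane median for BPA from -0.024 to 0.114. With the dimmest and brightest arrays (BPA P0, DES E17) left out, the basement membrane median was -0.031 for BPA and 0.09 for P0 against E17. For the slopes by age, the fit of only the arrays compared and the fit without BPA E18 and BPA P0, the latter chosen after seeing the data, were not run. Beyond those the deposited scale itself makes, the cause was not tested. Age was a factor of the main model, so agents were already compared within ages; the labels number no replicates.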
